A study of Mus musculus with 6 samples.

Results

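The transcriptome of control spinal cord endothelial cells (ECs) was described from 3 RNA-Seq libraries, Ctrl 1 to Ctrl 3, of the 6 in the series. The members were the libraries labelled as control, and their protein-coding genes were ranked by mean CPM, the counts of a gene for each 1000000 counts of its library. The control mice were C57BL/6 animals that carried the floxed Tardbp allele (genotype Tardbpflox) without Cre. The other 3 libraries came from Cdh5(PAC)-CreERT2;Tardbpflox mice and entered no comparison here. Both groups received tamoxifen at 1 mg/mL from postnatal day (P) 5 to P7 and were used at P16, so the control ECs describe a floxed, tamoxifen-treated, juvenile animal. Each library was taken as the ECs of 1 mouse, since the titles number the controls 1 to 3 and the paper names no pooling. The cells were sorted by flow cytometry after collagenase digestion and exclusion of dead cells. The sort used antibodies to CD31, an EC surface protein, to the leukocyte protein CD45 and to the erythroid protein TER-119. Reverse transcription started from 0.2 to 3.1 ng of RNA, and the cDNA was amplified by 15 or 20 cycles, which the sources used here do not give for each mouse.

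ECs line every blood vessel. In the brain and spinal cord they form the blood-CNS barrier, in which tight junctions seal the space between cells, few vesicles cross the cell, and dedicated carriers bring glucose, amino acids, lactate and hormones to the tissue while efflux pumps return drugs to the blood. Wnt and Norrin ligands acting through β-catenin induce and keep this program, and claudin-5, encoded by Cldn5, is the leading claudin of its junctions.

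The 4 genes that mark these cells were Bsg, Cldn5, Itm2a and Slco1c1. The 250 bases upstream of their annotated starts are given below and describe these 4 genes only. The sequences were read 5′ to 3′ on the strand of each gene from GRCm39, at the canonical starts of GENCODE M39. Capitals mark GGAA or, for the opposite strand, TTCC, the core bound by ETS factors such as Ets1, Erg and Fli1. Bsg stood at chr10:79539893-79540142 (plus strand), Cldn5 at chr16:18595347-18595596 (plus strand), Itm2a at chrX:106446995-106447244 (minus strand) and Slco1c1 at chr6:141469520-141469769 (plus strand).
Bsg: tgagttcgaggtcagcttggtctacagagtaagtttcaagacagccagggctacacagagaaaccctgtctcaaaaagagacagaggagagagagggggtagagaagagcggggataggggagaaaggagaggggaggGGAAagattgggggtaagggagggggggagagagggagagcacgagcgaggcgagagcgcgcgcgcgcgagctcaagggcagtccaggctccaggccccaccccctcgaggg
Cldn5: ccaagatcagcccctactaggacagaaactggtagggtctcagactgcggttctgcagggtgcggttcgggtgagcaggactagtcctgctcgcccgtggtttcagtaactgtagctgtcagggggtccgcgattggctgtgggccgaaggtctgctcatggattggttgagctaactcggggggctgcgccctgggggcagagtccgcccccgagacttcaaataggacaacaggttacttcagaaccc
Itm2a: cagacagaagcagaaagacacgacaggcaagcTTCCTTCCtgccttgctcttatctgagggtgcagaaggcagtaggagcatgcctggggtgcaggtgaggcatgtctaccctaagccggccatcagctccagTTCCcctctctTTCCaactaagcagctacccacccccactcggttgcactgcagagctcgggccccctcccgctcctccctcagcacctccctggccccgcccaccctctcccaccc
Slco1c1: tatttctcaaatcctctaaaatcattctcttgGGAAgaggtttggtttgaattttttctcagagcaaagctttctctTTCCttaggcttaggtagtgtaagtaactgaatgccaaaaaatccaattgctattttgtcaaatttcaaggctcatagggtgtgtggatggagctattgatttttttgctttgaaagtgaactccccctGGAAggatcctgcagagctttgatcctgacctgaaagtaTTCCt

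The Bsg and Itm2a windows were GC-rich (61.2% and 62.4% G or C), Cldn5 held 59.6%, and Slco1c1 held 38.4%. The ratio of observed to expected CpG pairs was 0.602 for Bsg, 0.549 for Cldn5 and 0.268 for Itm2a, and Slco1c1 had no CpG at all. GGAA occurred once in Bsg, 4 times in Itm2a and 4 times in Slco1c1, counted on both strands, and these letters were not in the Cldn5 window. None of the 4 windows held TATAAA or, on either strand, CCGGAA. Of 13336 windows of the same length upstream of protein-coding genes with a count, 94.0% held GGAA and 17.2% held CCGGAA, which contains it. Both were searched over the whole window and on both strands. TATAAA was searched only in a short stretch near the start, on the strand of the gene, where 0.825% held it. The 32 pan-endothelial genes described further on had a median CpG ratio of 0.343, beside 0.642 over all 13336 windows and 0.545 over the 94 windows read for the 100 most abundant genes. GGAA was present in 100% of these 32 windows, with a median of 3.5 occurrences, beside a median of 3 over all 13336 windows. CCGGAA was present in 1 of the 32 and in 177 of the 990 read for the 1000 most abundant genes (17.9%). These are descriptions of letters in a window and were not tested.

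The 3 libraries were about equally deep, at 44041329, 45329494 and 47270654 counts for Ctrl 1, Ctrl 2 and Ctrl 3. A count of 3, the limit that a count of 0 allows, corresponded to 0.0635 to 0.0681 CPM, and covers counting error only, since the amplified molecules carried no molecular identifiers. Ctrl 2 stood apart from the others. It had counts for 10089 protein-coding genes, against 12450 in Ctrl 1 and 12177 in Ctrl 3. Among the 7748 genes with a mean of 10 CPM or more, 130 were at 0 in Ctrl 2, 1 in Ctrl 1 and 2 in Ctrl 3. Across these 7748 genes, log2 CPM correlated at r = 0.914 between Ctrl 1 and Ctrl 3, but at 0.724 and 0.723 between Ctrl 2 and each of these. Genes are not independent replicates, and these values carry no p. Ribosomal RNA other than mitochondrial took 14.8%, 14.8% and 18.5% of all counts, highest in Ctrl 3. Mitochondrial ribosomal RNA took 0.833%, 3.37% and 1.62%, and mitochondrially encoded mRNA took 0.837%, 3.09% and 1.47%, both highest in Ctrl 2.

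Of 21970 protein-coding genes in the table, 13383 had a count in at least 1 control mouse and 9631 had one in every mouse. The mean reached 1 CPM for 11079 genes, 10 CPM for 7748, 100 CPM for 1485 and 1000 CPM for 88. Messages were concentrated in few genes. The 10 most abundant held 8.70% ± 0.289 (SD, n = 3) of the protein-coding counts, the 100 most abundant 28.3% ± 0.662 and the 1000 most abundant 62.5% ± 0.636. The 483 highest genes held 50% of the summed CPM and 4380 genes held 90%. Of the 100 highest by the mean, 83 were among the 100 highest of every mouse, and 787 of the 1000 highest were among the 1000 highest of every mouse.

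**Figure D1:**
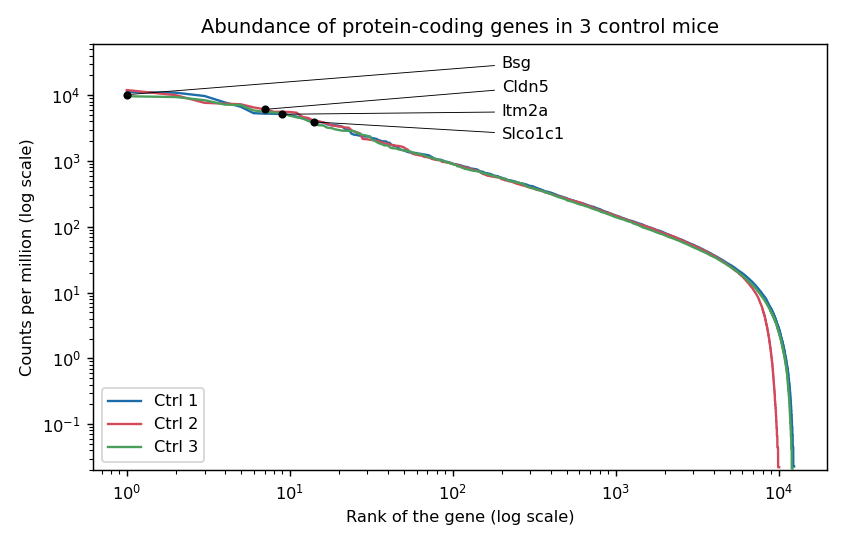
Rank of each protein-coding gene within its library (x axis, log scale) against its CPM (y axis, log scale), 1 line for each control mouse; dots mark the mean CPM of 4 EC genes at their rank by the mean. The 3 lines overlie each other down to about 10 CPM, below which Ctrl 2 drops away and ends at 10089 genes, against 12450 and 12177 in the other mice.

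All 4 EC markers lay among the 14 most abundant protein-coding genes. Bsg, which encodes basigin, a chaperone of monocarboxylate transporters and a known label of barrier ECs, ranked first. It was at 11192, 9997 and 9364 CPM in Ctrl 1, Ctrl 2 and Ctrl 3, a mean of 10184 ± 928 (SD, n = 3). Cldn5 ranked 7 by CPM, with 7751, 5597 and 4889 CPM and a mean of 6079 ± 1491. Ctrl 1 was the high mouse for both genes.

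Itm2a, which encodes an integral membrane protein abundant in CNS capillaries, ranked 9 with 5220, 5550 and 4606 CPM (mean 5125 ± 479). Slco1c1, the carrier of thyroxine across the barrier, ranked 14 and was at 3883, 3853 and 4051 CPM (mean 3929 ± 107). Its coefficient of variation (CV, the SD over the mean) was 2.72%, beside 24.5% for Cldn5, and the 3 mice were nearly level.

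To set genes of different length side by side, levels were also expressed per length as TPM, transcripts of a gene for each 1000000 transcripts, from the length of the canonical transcript. On this scale Bsg stood at 14829 ± 1423 TPM, Cldn5 at 11312 ± 2811, Itm2a at 7691 ± 794 and Slco1c1 at 2391 ± 41.7. Tmsb4x, encoding the actin-binding peptide thymosin β4, had the highest level per length of all genes, at 17991 ± 3223 TPM. Of the 100 highest genes by CPM, 71 were also among the 100 highest per length. The median transcript was 1359 bases among the 100 highest per length, 2119.5 bases among the 100 highest by CPM and 3419 bases over all protein-coding genes with a count.

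The 30 highest genes fell into a few roles. Genes of the barrier and of EC identity besides the 4 markers were Ly6c1, Pltp, Cxcl12, Car4, Tfrc, Slc2a1, Slc16a1 and Slco1a4. Ly6e, a surface protein, was among the 30 and was not placed in this role. Ly6c1, a surface protein anchored to the membrane of many mouse ECs, was at 5152, 7275 and 5313 CPM, highest in Ctrl 2. Slc2a1, the barrier glucose carrier GLUT1, was at 4417, 4084 and 2359 CPM, lowest in Ctrl 3. Slc16a1, which carries lactate and ketone bodies, was at 3879, 3220 and 2871 CPM.

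Tfrc, the transferrin receptor that brings iron into the cell, was at 3029, 2136 and 2886 CPM. Car4, a membrane-bound carbonic anhydrase of capillaries, was at 3431, 3316 and 2874 CPM. Cxcl12, a chemokine, was at 4443, 3719 and 2592 CPM, and Slco1a4, a carrier of organic anions, was at 2470, 3418 and 2453 CPM. Pltp, the phospholipid transfer protein, was at 5239, 4503 and 3779 CPM, with 21.2% of its exonic bases overlapping another annotated gene. The kit does not mark strand, so reads of overlapping genes cannot be told apart.

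Sparc and Sparcl1, matricellular proteins, were the matrix genes of this set. Sparc was at 9714, 7430 and 8396 CPM and ranked 3. Actb and Actg1, the cytoplasmic actins, and Tmsb4x were the cytoskeletal genes. Actb was at 10906, 7647 and 9638 CPM, lowest in Ctrl 2. Selenop, a secreted selenium carrier, was at 3591, 5415 and 3163 CPM, highest in Ctrl 2.

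The rest of the 30 were genes used in most cells, and a pair of hemoglobin genes described further on with the erythroid markers. Eef1a1, a translation elongation factor, was at 6668, 5590 and 7189 CPM. Fth1, the heavy chain of the iron store ferritin, was at 5328, 6522 and 7073 CPM, with 41.5% of its exonic bases overlapping other genes. Among the others were the ubiquitin gene Ubb, the chaperone gene Hspa8, the prolyl isomerase gene Ppia, the mitochondrial genes mt-Co1 and mt-Cytb, and Lars2. Counts of genes with many near-identical copies in the genome, such as Eef1a1, Ppia and Ubb, can be split among these copies and are less certain than the rest.

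Lars2, the mitochondrial leucyl-tRNA synthetase, was at 2168, 2056 and 4427 CPM, highest in Ctrl 3. Ribosomal RNA other than mitochondrial was also highest in Ctrl 3, as given above, and its part in the Lars2 value was not tested. The order of neighbours within the 30 was weakly set. In 2 of the 29 neighbouring pairs every mouse gave the order of the means, and in none of the 29 did the ranges of the 3 mice stay apart.

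**Figure D2:**
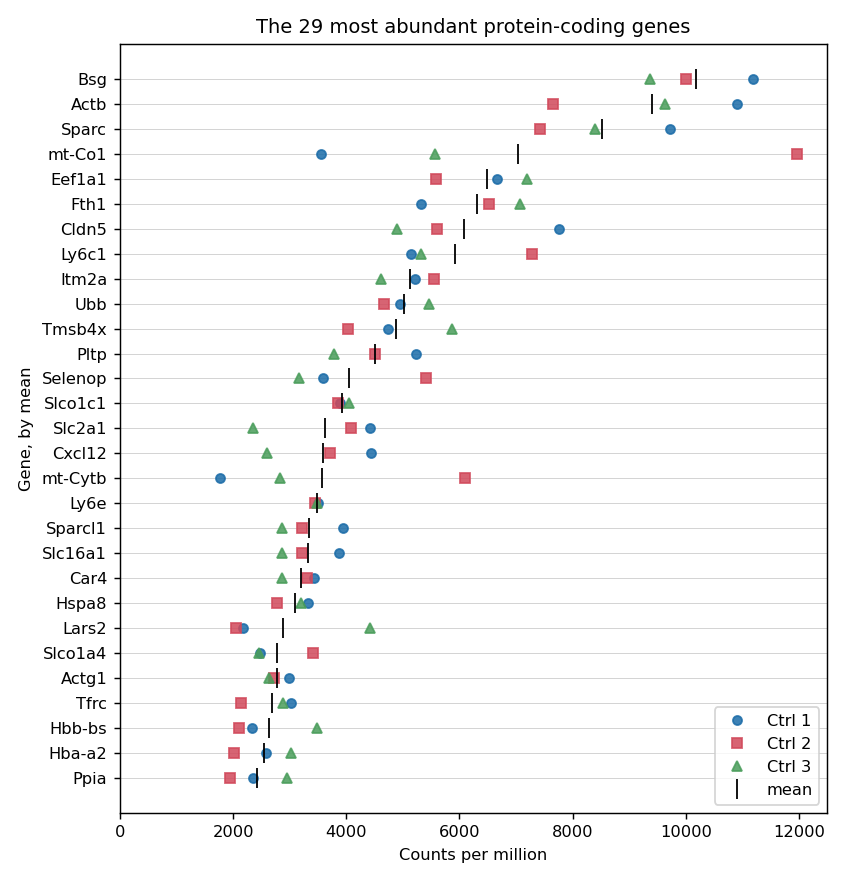
CPM (x axis) of the 29 protein-coding genes with the highest mean, in order of the mean; symbols are the 3 control mice and the black tick is their mean. The 2 mitochondrial genes mt-Co1 and mt-Cytb spread most, with Ctrl 2 far to the right, while Ly6e and Slco1c1 sit nearly on their means.

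The pan-endothelial list, 32 genes known in ECs of most vessels, was detected whole. All 32 had a mean of 10 CPM or more, and 26 were among the 1000 most abundant protein-coding genes, a set that took in 7.47% of the protein-coding genes with a count. Without Ctrl 2 the number was 28. The median level per length of the list was 225 TPM, against 10.5 TPM over all protein-coding genes with a count. The lists used here were drawn up with earlier results of these data known, so their counts describe the libraries and are not independent evidence of identity.

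Among receptors of the list, Flt1 and Kdr, the VEGF receptors, stood at 678 ± 70.8 and 392 ± 62.5 TPM. Flt1 was at 1981, 1621 and 1721 CPM. Tek and Tie1, the angiopoietin receptor and its partner, were close together at 247 ± 20.5 and 248 ± 19.4 TPM. Eng, a coreceptor for BMP ligands, was at 1992, 1559 and 1330 CPM, or 1229 ± 259 TPM. S1pr1, the receptor for sphingosine 1-phosphate, stood at 664 ± 111 TPM.

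Pecam1, which encodes the sorted protein CD31, was at 1530, 1079 and 1054 CPM, or 874 ± 194 TPM. Cdh5, which encodes VE-cadherin and whose promoter drives Cre in the mice not used here, was at 183, 140 and 175 CPM, or 109 ± 14.1 TPM. Esam, an adhesion protein of EC junctions, stood far higher at 3003 ± 485 TPM. Cd34 stood at 2209 ± 322 TPM and Emcn, encoding endomucin, at 1372 ± 80.3 TPM.

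Sox18, Sox17 and Sox7, partners in vessel formation, stood at 551 ± 157, 171 ± 33.4 and 163 ± 29.6 TPM. The ETS genes Ets1, Fli1 and Erg stood at 185 ± 33.0, 79.9 ± 25.4 and 38.1 ± 2.51 TPM. Tal1 was the lowest of the 32, at 5.04, 13.9 and 17.4 CPM. In the wider list of 37 EC transcription factors, 35 had 10 CPM or more and 9 were in the top 1000. The highest per length was Id3, an inhibitor of DNA binding that responds to BMP, at 2990 ± 414 TPM, followed by Id1 at 1066 ± 214 TPM, and Meox2 had a count in 1 mouse only (0.529 CPM in Ctrl 3).

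The tight junction list had a wide range of levels. Of its 20 genes, 7 were in the top 1000, 14 had 10 CPM or more, and 5 had no count in any mouse. Cldn5 alone held 59.8% of the summed CPM of the list. The other claudins listed were far lower. Cldn12 was at 23.3, 42.9 and 7.07 CPM, and Cldn1 and Cldn3 were at 0 in all 3 mice, which allows up to 0.0681 CPM in the shallowest library.

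The scaffold genes of the junction were moderate. Tjp1, which encodes ZO-1, stood at 78.4 ± 14.4 TPM, and Tjp3 was at 0. Ocln, encoding occludin, was at 243, 334 and 185 CPM (98.9 ± 30.1 TPM). Cgnl1, encoding paracingulin, was at 163, 142 and 120 CPM, while its relative Cgn was at 0 in every mouse. Lsr, the angulin of cell corners, stood at 417 ± 82.7 TPM, with 38.2% of its exonic bases overlapping other genes, and Marveld2, the tricellulin that works with it, stood at 11.1 ± 2.82 TPM. Marveld3 was at 0.

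Adherens junction genes were present with 11 of 12 at 10 CPM or more and 6 in the top 1000, or 5 without Ctrl 2. Ctnnb1, encoding β-catenin, was the highest per length, at 510 ± 47.4 TPM, and was at 683, 773 and 662 CPM. Jup, its relative plakoglobin, stood at 383 ± 149 TPM and Ctnna1, α-catenin, at 298 ± 106 TPM. Cdh2, encoding N-cadherin, stood at 38.1 ± 15.9 TPM, below the 109 ± 14.1 TPM of Cdh5.

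Solute carriers were numerous among the abundant genes. Of 43 genes, 10 were in the top 100, 23 in the top 1000 and 39 at 10 CPM or more, with a median of 135 TPM. Together they summed to 31986, 29077 and 24546 CPM, lowest in Ctrl 3. Of the 39 genes at 10 CPM or more, 24 were lowest in Ctrl 3, beside 2616 of all 7748 protein-coding genes at that level.

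For glucose and lactate, Slc2a1 stood at 2148 ± 669 TPM and Slc16a1 at 1903 ± 302 TPM. Slc2a3, the glucose carrier known from neurons, was at 1.45, 0 and 4.38 CPM. For large neutral amino acids, Slc3a2 and Slc7a5, the chains of the LAT1 carrier, stood at 1983 ± 418 and 404 ± 48.7 TPM. Slc38a5 and Slc38a3, carriers of glutamine, stood at 1210 ± 329 and 806 ± 98.0 TPM, and Slc7a1, a carrier of cationic amino acids, at 237 ± 69.5 TPM.

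For hormones and organic anions, Slco1c1 and Slco1a4 stood at 2391 ± 41.7 and 1849 ± 384 TPM, and Slc22a8 at 1082 ± 318 TPM. Mfsd2a, a carrier of lipids containing docosahexaenoic acid that also restrains vesicle traffic, was at 1712, 1275 and 1084 CPM, or 1663 ± 400 TPM. For metals, the iron exporter Slc40a1 stood at 580 ± 73.4 TPM and the zinc importer Slc39a10 at 361 ± 67.1 TPM. Slc19a3, for thiamine, stood at 306 ± 94.8 TPM. Slc13a4 was the member at 0 in every mouse.

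Efflux pumps were led by the pair that is best known at the barrier. Abcg2, the breast cancer resistance protein, was at 873, 1148 and 878 CPM, or 473 ± 80.9 TPM. Abcb1a, the P-glycoprotein of mouse barrier ECs, was at 747, 764 and 707 CPM, or 385 ± 19.2 TPM. Abcb1b, its close copy, was at 0.0227, 6.31 and 0.317 CPM. Abcc4 stood at 135 ± 13.1 TPM. Of 10 ABC genes, 4 were in the top 1000, or 5 without Ctrl 2.

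Of 15 receptor genes linked to transport across the cell, 7 were in the top 1000. After Bsg and Tfrc (1442 ± 250 TPM), Fcgrt, which encodes the Fc receptor that recycles antibodies, stood at 633 ± 127 TPM. Insr and Igf1r, the receptors for insulin and IGF-1, stood at 86.3 ± 22.3 and 62.9 ± 9.33 TPM. Lrp8, an apolipoprotein E receptor, stood at 104 ± 13.1 TPM. Lrp1 was low, at 0.585 ± 0.786 TPM, with no count in Ctrl 2.

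Vesicle genes had 4 of 11 members in the top 1000. Cav1, which encodes the main protein of caveolae, was at 770, 630 and 746 CPM, or 662 ± 65.5 TPM. Cavin1, Cavin2 and Cav2 stood at 149 ± 32.3, 54.3 ± 4.23 and 91.0 ± 3.44 TPM. Plvap, which forms the diaphragms of fenestrae and is absent from mature barrier vessels, was at 0.0908, 0 and 1.42 CPM. The muscle caveolin Cav3 was at 0 in every mouse.

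Wnt and Norrin genes were detected throughout, with 21 of 23 at 10 CPM or more and 7 in the top 1000. Among receptors and coreceptors, Fzd4, the Norrin receptor, stood at 93.7 ± 23.6 TPM, Fzd6 at 120 ± 28.1 TPM and Tspan12, which aids Norrin signaling, at 95.0 ± 24.9 TPM. Adgra2 and Reck, which together pass on Wnt7 ligands, stood at 29.8 ± 4.01 and 19.3 ± 17.7 TPM. Reck was at 12.5, 66.4 and 18.7 CPM, highest in Ctrl 2. Lrp5 and Lrp6, the shared coreceptors, stood at 9.73 ± 8.88 and 8.95 ± 4.89 TPM.

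Among targets and modulators of the pathway, Apcdd1 was at 751, 791 and 665 CPM, or 178 ± 17.4 TPM. Nkd1, Tnfrsf19 and Lef1 stood at 126 ± 26.2, 130 ± 41.3 and 102 ± 46.2 TPM. Axin2, a common reporter of β-catenin activity, was at 17.6, 8.34 and 17.9 CPM, or 8.67 ± 3.18 TPM. The barrier factors Foxf2 and Foxq1 stood at 67.8 ± 10.5 and 33.9 ± 6.33 TPM.

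**Figure D3:**
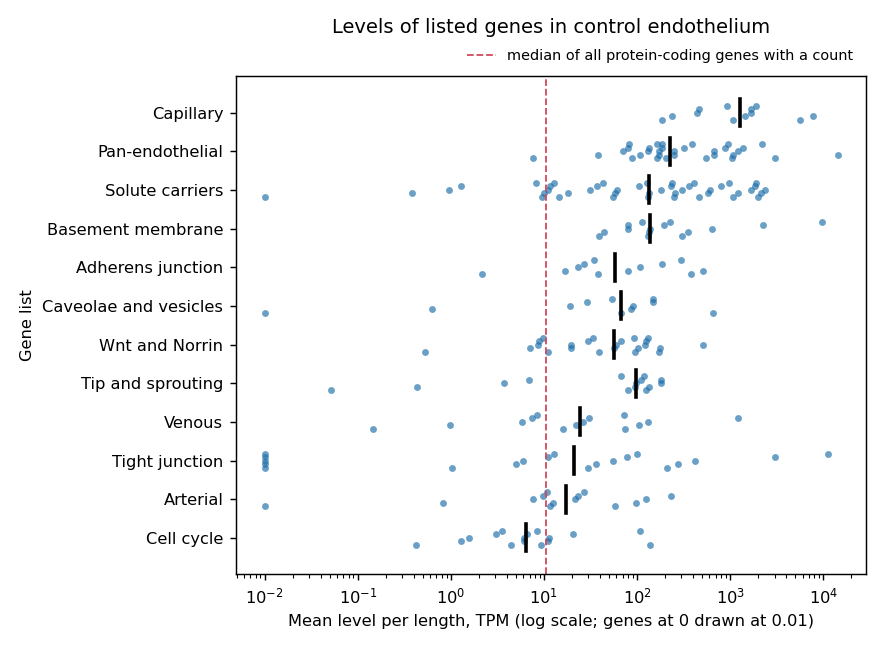
Mean level per length in TPM (x axis, log scale) of each gene (dot) in 12 lists (y axis); black bars are list medians and the dashed line is the median of all protein-coding genes with a count, 10.5 TPM. Capillary genes sit highest with a median of 1262 TPM, cell cycle genes have a median of 6.37 TPM, and tight junction genes run from 0 to Cldn5 at 11312 TPM.

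Genes of the vessel segments were unequal in level. All 12 capillary genes were in the top 1000, with a median of 1262 TPM, and they included Itm2a, Car4, Cxcl12, Mfsd2a and Spock2. Several of them are also barrier carriers and stand in both lists. Of 14 arterial genes, 1 was in the top 1000, and of 14 venous genes, 3 were. The list medians were 17.1 TPM for arterial and 24.2 TPM for venous genes. In bulk RNA of a sorted population, fewer cells of a type and less RNA for each cell cannot be told apart.

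The arterial gene in the top 1000 was Dll4, a Notch ligand that is also used by sprouting cells, at 218, 201 and 121 CPM. Mgp, the matrix Gla protein of arteries, had the highest level per length of the list, at 232 ± 57.0 TPM, and Hey1 stood at 58.3 ± 3.32 TPM. Gja5, a connexin of arteries, was at 1.93, 0 and 0.994 CPM, and Cytl1 was at 0. Among venous genes, Slc38a5 and Vwf stood at 1210 ± 329 and 130 ± 14.1 TPM, Ephb4 at 26.4 ± 1.84 TPM and Nr2f2, a factor of venous identity, at 5.75 ± 2.91 TPM. Among adhesion molecules that bind leukocytes, Icam1 was at 89.4, 108 and 70.7 CPM and Vcam1 at 6.13, 8.05 and 15.6 CPM. Sele was at 3.84, 0 and 0.338 CPM and Selp at 0.568, 0 and 0 CPM.

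Genes of sprouting tip cells had 6 of 14 members in the top 1000. The largest share of their summed CPM, 16.3%, was that of Nid2, which is also described below with the basement membrane genes. Apln, Angpt2 and Pdgfb stood at 181 ± 46.5, 98.2 ± 26.4 and 95.1 ± 22.6 TPM, although 70.7% of the exonic bases of Angpt2 overlap Mcph1. Esm1, a tip cell gene, was at 0.0908, 0 and 0.0423 CPM, around the limit of a count of 0. Proliferation genes were low, with 5 of 16 at 10 CPM or more (7 without Ctrl 2) and 1, Ccnd1 (137 ± 16.2 TPM), in the top 1000. Mki67 was at 8.47, 0 and 10.1 CPM and Top2a at 4.06, 1.24 and 2.37 CPM. Ctrl 2 was the library at 0 for 6 of these 16 genes and the other 2 libraries had a count for each.

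Basement membrane genes were all abundant. Each of 15 was in the top 1000, with a median of 137 TPM, and they stayed there without Ctrl 2. Sparc led at 9706 ± 1289 TPM, followed by Sparcl1 at 2250 ± 382 and Fn1, encoding fibronectin, at 641 ± 46.2 TPM. Fn1 was at 1890, 2167 and 2080 CPM.

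The type IV collagens Col4a1 and Col4a2, whose genes lie head to head, stood at 354 ± 8.26 and 303 ± 55.0 TPM. Among laminins, Lama4, a laminin chain of vessel walls, stood at 137 ± 24.8 TPM, Lamb2 at 113 ± 14.7 TPM, Lamb1 at 80.3 ± 23.2 TPM and Lamc1 at 79.3 ± 5.37 TPM. Nid1 and Nid2, which link laminin to collagen, stood at 228 ± 13.3 and 134 ± 24.8 TPM.

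Of 24 genes for secreted and vasoactive factors, 8 were in the top 1000, or 9 without Ctrl 2. Plat, the tissue plasminogen activator, stood at 816 ± 149 TPM, Ccn1 at 782 ± 21.7 TPM and Igfbp7 at 455 ± 59.3 TPM. Nos3, the endothelial nitric oxide synthase, stood at 170 ± 42.6 TPM and Edn1, endothelin, at 149 ± 43.9 TPM. Bmp6 and F8 were at 0 in all mice.

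Energy and housekeeping genes were common in the upper range. Of 77 cytoplasmic ribosomal protein genes, 67 were in the top 1000, and 72 of the 77 were highest in Ctrl 3, beside 2119 of the 7748 genes at 10 CPM or more. Of 16 glycolytic genes, 9 were in the top 1000, led after Slc2a1 by Eno1 and Gapdh at 1339 ± 240 and 1171 ± 114 TPM. Hk1 stood at 27.6 ± 6.92 TPM and Hk2 had a count only in Ctrl 1. Of 20 cytoskeletal genes, 18 were in the top 1000.

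Among genes that respond to dissociation and stress, 10 of 20 were in the top 1000. Nfkbia, Dusp1 and Fos stood at 1038 ± 206, 925 ± 122 and 824 ± 232 TPM. Fos was at 761, 443 and 784 CPM, lowest in Ctrl 2. Hspa1a, a heat shock gene, was at 733, 452 and 694 CPM, again lowest in Ctrl 2. The part of the digestion in these levels was not tested.

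The 13 mitochondrially encoded mRNAs were uneven between mice, and 12 of them were highest in Ctrl 2, beside 2883 of the 7748 genes at 10 CPM or more. mt-Co1, a subunit of cytochrome oxidase, was at 3547, 11969 and 5564 CPM, and was the most abundant gene of Ctrl 2, where Bsg led in Ctrl 1 and Actb in Ctrl 3. Without Ctrl 2 the mean of mt-Co1 was 4555 CPM in place of 7026, and that of mt-Cytb 2303 in place of 3570. Summed, the class was at 8374, 30879 and 14725 CPM. The exception was mt-Nd4l, at 0.863, 0 and 0.994 CPM.

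The labelled cell type was checked against markers of other cells of the cord. The pan-endothelial list summed to 27774, 26898 and 24342 CPM. Its ratio to the summed markers of mural cells, fibroblasts, astrocytes, oligodendrocytes, neurons, microglia and Schwann or ependymal cells was 12.6, 13.1 and 8.33, a mean of 11.4. Erythroid markers, which summed to 7654, 6336 and 9761 CPM, more than those lists, were left out of this ratio. Ctrl 3 had the lowest ratio, with the highest mural and oligodendrocyte sums.

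Mural cell markers, of pericytes and smooth muscle, summed to 881, 677 and 1356 CPM, and all 14 genes had a count. Rgs5 and Vtn led at 433, 366 and 655 CPM and at 244, 156 and 344 CPM. Pdgfrb, the defining receptor of pericytes, was at 16.1, 0 and 18.5 CPM, and Kcnj8, a pericyte channel, at 40.5, 0 and 68.1 CPM. Both had no count in Ctrl 2.

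Oligodendrocyte markers summed to 662, 765 and 941 CPM. The myelin gene Mbp was at 68.5, 150 and 81.1 CPM, and Mal was at 235, 203 and 208 CPM. Sox10, the factor that defines the lineage, was at 0.0908, 0 and 0.0212 CPM.

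Astrocyte markers summed to 286, 239 and 285 CPM, of which Gja1, a connexin that ECs also express, held 79.8%. Aqp4 was at 1.77, 0 and 2.35 CPM and Gjb6 at 0. Microglial markers summed to 81.4, 108 and 58.0 CPM, and 6 of 12, among them Cx3cr1, Csf1r and Aif1, were at 0 in every mouse. P2ry12, a purine receptor of microglia, was at 1.41, 0 and 1.80 CPM.

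Neuronal markers summed to 27.4, 24.4 and 35.5 CPM, with Tubb3, Syt1 and Slc17a6 at 0. Fibroblast markers summed to 51.0, 53.3 and 63.1 CPM, led by Col3a1. Schwann and ependymal markers summed to 208, 179 and 185 CPM, of which Pmp22 held 93.6%.

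Erythroid signal was larger. The α-globin genes Hba-a1 and Hba-a2, near-identical copies whose counts are best read together, summed to 4622, 3742 and 5511 CPM. The β-globin genes Hbb-bs and Hbb-bt summed to 2932, 2562 and 4187 CPM. Globin was thus lowest in Ctrl 2 and highest in Ctrl 3, at 0.630% and 0.970% of all counts. Alas2, of red cell heme synthesis, was at 94.0, 32.0 and 60.7 CPM, while Slc4a1, the anion exchanger of red cells, had a count in Ctrl 1 only (0.0454 CPM). What the source of this RNA was, and what part any of these cell types had in the levels of genes they share with ECs, was not tested.

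**Figure D4:**
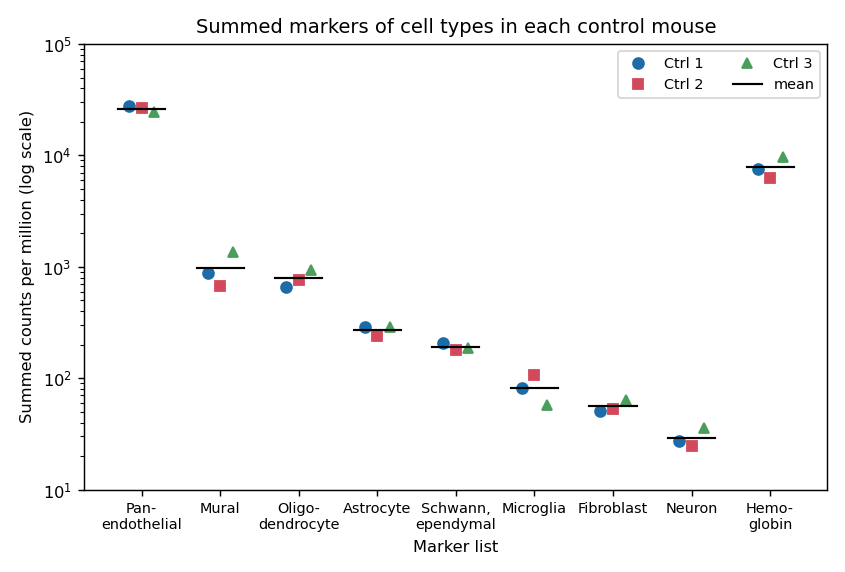
Summed CPM (y axis, log scale) of the pan-endothelial list, of 7 marker lists of other cell types and of the 4 hemoglobin genes (x axis); symbols are the 3 control mice and bars their means. The pan-endothelial sum is near 26338 CPM, mural and oligodendrocyte sums stand at 971 and 789 CPM on average, neuronal markers at 29.1 CPM, and hemoglobin at 7852 CPM.

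Spread between mice depended on abundance and on Ctrl 2. Over the 7748 genes with a mean of 10 CPM or more, the median CV was 30.1%. It was 28.3% without Ctrl 1, 18.6% without Ctrl 2 and 27.2% without Ctrl 3, for genes at 10 CPM or more in the mice left. By level, the median CV was 90.4% between 1 and 10 CPM, 34.7% between 10 and 100 CPM, 17.9% between 100 and 1000 CPM and 15.4% above. Counting error alone would give medians of 7.22%, 2.74%, 1.11% and 0.364% in these classes, below the medians measured. With Ctrl 1 and Ctrl 3 only, the same classes had medians of 52.9%, 20.7%, 13.1% and 12.5%. A CV over fewer mice tends to be lower, so these medians are not on an equal footing with those of all mice. The part of Ctrl 2 in each drop was not tested.

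The common biological coefficient of variation, the spread beyond counting error estimated by edgeR over these genes, was 0.558, and 0.318 without Ctrl 2. More than a 2-fold difference in CPM (log2 scale, 0.5 CPM added) separated Ctrl 1 from Ctrl 3 in 11.4% of the 7748 genes. It separated Ctrl 2 from Ctrl 1 in 27.9% and from Ctrl 3 in 29.5%. The highest mouse was Ctrl 2 for 2883 genes and the lowest was Ctrl 2 for 3208.

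**Figure D5:**
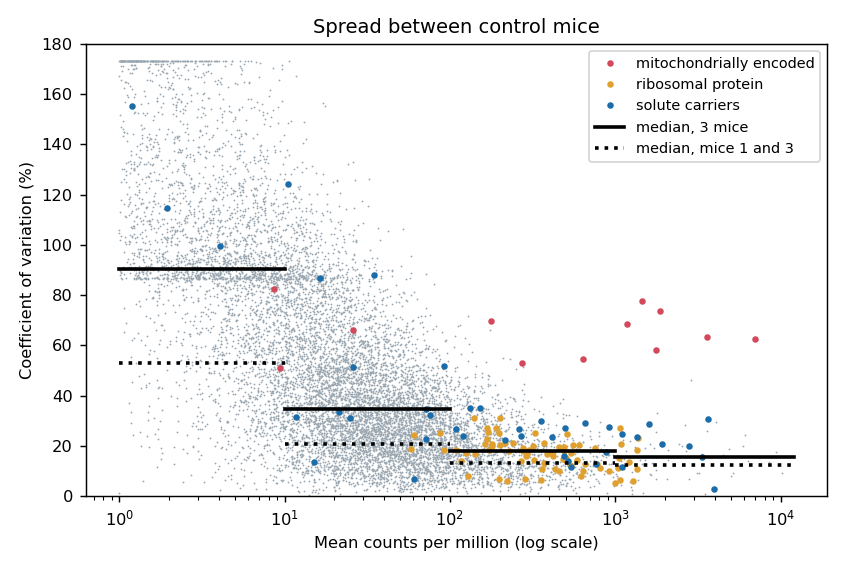
Coefficient of variation over 3 control mice (y axis, %) against mean CPM (x axis, log scale) for each protein-coding gene with a mean of 1 CPM or more (grey), with 3 gene classes in colour; bars are class medians, solid for 3 mice and dotted for Ctrl 1 and Ctrl 3. Mitochondrial genes at 100 CPM or more lie between 53.2% and 77.6%, while the median of genes at 1000 CPM or more is 15.4%.

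The genes that varied least came from several classes. Ly6e, a GPI-anchored surface protein, was at 3502, 3456 and 3478 CPM, a CV of 0.668%. Col4a1 was at 898, 894 and 875 CPM, and Gsta4, a glutathione transferase, at 1255, 1250 and 1272 CPM. Itm2b, a relative of Itm2a, was at 1466, 1494 and 1466 CPM. The other 11 of the 15 lowest CVs were Cnot3, Eif3f, Arel1, Txndc12, Taldo1, Tango2, Zwint, Tmem59, Vamp3, Atf1 and Tmem64, and all 15 lay at 1.44% or below. With 7748 genes and 3 mice, some will lie this close by sampling, and such a list describes these libraries only.

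The genes that varied most were near the lower limit of 10 CPM, and 12 of the 15 were highest in Ctrl 2. Abcc8, a sulfonylurea receptor, was at 0, 31.9 and 0 CPM, Gk5 at 0.749, 34.5 and 0.0846 CPM, and Cdc25b, a cell cycle phosphatase, at 2.82, 29.7 and 0.254 CPM. Taf8 was at 35.6, 0 and 5.01 CPM. In all, 475 genes were at 0 in at least 1 mouse and at 10 CPM or more in another, and Ctrl 2 was at 0 for 405 of them. Kcnj8, Abl1, Slc25a10, Ldah and Zfyve21 led these by their highest value. Abl1, a tyrosine kinase, was at 50.2, 0 and 12.4 CPM.

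Length changed which genes led. The 10 genes of highest level per length outside the 100 highest by CPM were led by BC028528, at 4133 ± 1003 TPM and 526, 859 and 719 CPM. Rps14, Rpl41, Rpl9 and Rpl24 of the ribosome, Cox4i1 of the respiratory chain, the heat shock gene Hspb1 and Hbb-bt were among them. Gm49909 was also there, with all of its exonic bases overlapping other genes, so its counts cannot be told from theirs.

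Tardbp, which encodes TDP-43 and is the floxed gene in all animals, was at 53.9, 56.6 and 53.9 CPM, a mean of 54.8 ± 1.54 (SD, n = 3), or 19.3 ± 0.704 TPM. It ranked 2825 of the protein-coding genes by CPM. The 3 mice lay within a CV of 2.81%. The overlap with Masp2 covered 33.1% of its exonic bases.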

How the data were processed

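Bulk RNA-Seq counts of sorted spinal cord ECs were used from 3 control libraries, and the 3 knockout columns were not used. The authors aligned reads to GRCm39 with STAR and obtained expected counts per GENCODE M30 gene with RSEM. The deposited expected counts were whole numbers, unscaled and unfiltered, and 0 columns lacked a condition. The groups came from the sample titles, and each library was taken as 1 mouse. CPM was computed on the totals of all 56748 genes. TPM used canonical transcript lengths of GENCODE M39, which matched 99.1% of protein-coding genes, over protein-coding genes alone. Exonic overlap and gene starts came from the same annotation. With 1 group no test between groups was made, so no p-value is given. Spread was given as SD, CV and the common dispersion of edgeR 4.0.16 (TMM, intercept only), tested on simulated data. DESeq2 1.42.0 size factors were an alternative scaling. Named genes were the 4 markers, Tardbp, the 30 highest, the 15 highest and 15 lowest CVs at 10 CPM or more, the 10 highest per length outside the top 100, up to 15 genes at 0 in at least 1 mouse and at 10 CPM or more in another, and list members that were highest or at 0. Members whose role the text describes were also named. The genes and lists were chosen with earlier results of these data known. Older symbols were matched through RefSeq synonyms (Ctgf as Ccn2, Mfsd7c as Flvcr2). Some genes that meet the naming rule are not reported here.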

Additional observations from a re-analysis of the deposited data

How the results depend on the processing

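No paired analysis was possible because only control libraries were used and no result came from a test. Of 68 values under alternatives for 9 results, 59 moved by less than 1 SD or 1.5 times and 9 moved further. Part of the 59 was fixed in advance. Another scaling cancels in the ratio of markers, and it changes the share of the 100 highest genes only if their set changes. Leaving out a mouse could not move the mean ratio by 1 SD of the same mice. For the median CV and the biological coefficient of variation, the SD was that of the values with a mouse left out. Leaving out each mouse in turn gave a median CV between 18.6% and 28.3% and an edgeR biological coefficient of variation between 0.318 and 0.639, the lowest of both being without Ctrl 2. The median CV depended on the filter, at 40.8% for genes of 1 CPM or more, 52.2% with no filter and 17.8% for 100 CPM or more, and the biological coefficient of variation was 0.987 at 1 CPM or more. The share of the 100 highest genes was 27.5% without mitochondrially encoded genes. The ratio of endothelial to other markers was 8.15 with Ly6c1 and Ly6a left out (Cldn5 is not in the list) and 14.6 on the scale per length. The cause of these shifts was not tested. The number of genes at 1 CPM or more was 11079, 8598 with that level required in every mouse, and 7748 at a threshold of 10 CPM. Chosen after seeing the data, list counts in the top 1000 were repeated without Ctrl 2, and 0 of 33 lists moved by more than 1.5 times. Of 215 values of 31 named genes under other scalings or without a mouse, 26 moved by 1 SD or more. Each of the 26 was on CPM of protein-coding counts or without mitochondrially encoded genes, where CPM is taken over a smaller total. Leaving out a mouse could not move a mean by 1 SD, because the SD came from the same mice. This rule therefore cannot show whether a gene mean depends on a single mouse. The SD includes Ctrl 2, and without that mouse the means of mt-Co1 and mt-Cytb dropped from 7026 to 4555 CPM and from 3570 to 2303 CPM, each by over 1.5 times. Depth limits statements on genes near 0.0681 CPM, and RNA input and cycle number, not given for each mouse, cannot be set beside the loss of genes in Ctrl 2.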

Other observations

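Non-coding RNAs of the control ECs were outside the ranking. Of lncRNAs, 82 had a mean of 10 CPM or more, and Malat1, a nuclear RNA of most cells, led them at 695, 1438 and 822 CPM, highest in Ctrl 2. Xist, the RNA of the inactive X chromosome, was at 264, 676 and 269 CPM, and the Y-linked genes Ddx3y, Eif2s3y, Kdm5d and Uty were at 0 in all 3 mice. Norad was at 71.8, 148 and 69.0 CPM, so that Malat1, Xist and Norad were each highest in Ctrl 2. Gas5, a host gene of small nucleolar RNAs, was at 128, 138 and 162 CPM and did not share this order. Bvht, a lncRNA known from the cardiovascular lineage, was at 70.1, 91.8 and 68.8 CPM.

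The ribosomal gene Rn18s-rs5 took most counts of any gene, at 148074, 147531 and 184994 CPM. The mitochondrial ribosomal RNA mt-Rnr2 was at 8137, 32508 and 15683 CPM, in the same order of mice as the mitochondrial mRNAs. The unprocessed pseudogenes Gm28437 and Gm29216 were in that order too, at 1642, 4452 and 2423 CPM and at 545, 1219 and 685 CPM. Another of that class, Gm10925, was not, at 284, 360 and 125 CPM, with Ctrl 2 highest and Ctrl 3 lowest. Ubb-ps was at 550, 520 and 589 CPM, with Ctrl 2 lowest and Ctrl 3 highest, which is also the order of Ubb. These genes were chosen after their values were seen.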
